A study of Rattus norvegicus with 24 samples.

Results

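Mtx1, Acsl4, Zcchc9, Ube2q1, Ywhag, Ppip5k1, Macf1 and Pnma8b are 8 genes whose hippocampal signal differed between growth hormone (GH)-deficient dwarf rats and heterozygous control rats of both ages in an earlier look at the same arrays, and they were chosen by that measured difference. They are 8 of 12978 genes named on the array, and 9 of its 22226 probes carry one of their symbols. Of these 9 probes, 8 passed the detection filter, 1 for each gene, and each of the 8 was detected on all 24 arrays. The ninth, a further Mtx1 probe, was detected on 0 arrays and stayed between 6.01 and 6.07 on the log2 scale, at the floor of the normalized values. It was not tested. Because the log2 signal difference between dw/dw and HZ arrays chose the genes, it is described below and not tested. The GH and age comparisons, which did not choose them, are tested. These tests share arrays, and the spread within groups, with that difference. Counts of members passing in them are therefore not wholly independent of the choice.

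RNA of whole hippocampus was measured on Illumina rat arrays, 1 array for each of 24 rats, in 6 groups of 4. The dwarfs were of the strain HsdOla:DWARF-dw-4 and the controls of HsdOla:DWARF-dw-4 HZ. The groups were dw/dw rats injected subcutaneously with 300 µg of GH, dw/dw rats given saline, and heterozygous (HZ) rats given saline, each for 7 or 30 days from postnatal day 35, so that the rats were 42 or 65 days old. The controls therefore carry 1 copy of the dwarf allele and are not wild type, and no HZ rat received GH.

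GH is a pituitary hormone that acts through a cytokine-type receptor and the transcription factor STAT5, and it drives the release of insulin-like growth factor 1 (IGF-1) from the liver. The recessive dw mutation lowers pituitary GH output, so that dw/dw rats are short of circulating GH and IGF-1 and grow poorly. The hippocampus, a seat of memory formation, carries receptors for both hormones. The 8 genes belong to no single pathway. Mtx1 (metaxin 1) takes part in protein import at the mitochondrial outer membrane, and Acsl4 couples long-chain fatty acids, arachidonic acid in particular, to coenzyme A. Zcchc9 encodes a zinc knuckle protein, a class that binds nucleic acids, and Ube2q1 a ubiquitin-conjugating enzyme. Ywhag is the gamma member of the 14-3-3 proteins, which bind phosphorylated partners. Ppip5k1 makes inositol pyrophosphates, Macf1 links actin to microtubules, and Pnma8b belongs to a family derived from retrotransposon gag genes.

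Between 44.9% and 51.2% of all probes were detected on an array, and 11487 probes were tested. Markers of hippocampal tissue were present. All 10 neuronal markers with a probe, 8 of 8 of interneurons, 6 of 6 of astrocytes and 7 of 7 of oligodendrocytes were detected on all 24 arrays. So were 7 of 8 microglial markers, 3 of 5 endothelial, 9 of 12 meningeal, 2 of 9 choroid plexus and 3 of 6 red blood cell markers. The arrays of 7 days lay on one slide and those of 30 days on another, so age and slide cannot be told apart. On either slide, saline dwarfs took positions 1 to 4, GH dwarfs 5 to 8 and HZ rats 9 to 12, so group and position block cannot be told apart either. In whole tissue, fewer cells of a type and less RNA in each cell cannot be told apart.

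Values below are normalized log2 signals, and differences are on the same scale with the SE of a limma fit to all 24 arrays. On this scale 6.0 is close to the floor, and differences of dim probes are compressed. Mtx1, Acsl4, Zcchc9, Pnma8b and Ywhag lay near that floor, with deposited signals of at most 233 units, whereas Ube2q1 and Ppip5k1 lay near 8 and Macf1 near 11. Levels were not compared between probes. In the mean of both ages and both treatments, dw/dw arrays minus HZ arrays gave negative differences for Mtx1, Acsl4, Zcchc9, Ube2q1 and Ywhag and positive ones for Ppip5k1, Macf1 and Pnma8b. In this fit they reached in size from -0.12 (SE 0.023) for Zcchc9, a fold of 0.918, to -0.20 (SE 0.046) for Ywhag, a fold of 0.871. The order of sizes depended on the processing. With the series matrix, Acsl4 was -0.61, Mtx1 -0.41 and Ywhag -0.31, and with slide position as a covariate Pnma8b was 0.27 and Ywhag -0.10. Each group filled its own block of positions, so the fit with position cannot tell position apart from group.

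In that mean, 0 of 11487 probes passed an adjusted p of 0.05 in limma (0%), and 1102 had an unadjusted p under 0.05 (9.59%). With the replicate number as a block 11 of 11487 passed, 4 of them members (Ppip5k1, Zcchc9, Pnma8b and Acsl4). This contrast chose the genes, so their calls and ranks in it are no evidence for them. The 8 genes lay between ranks 3 and 28 of all probes by p. The named genes that ranked among them without being members were Rps13 at -0.27 (SE 0.052), Zdhhc3 at 0.070 (SE 0.015) and Sumo3 at 0.11 (SE 0.025). Just below Ywhag, the last member, came Mrpl17 at -0.32 (SE 0.074), Naa20 at -0.14 (SE 0.032) and Tm4sf1 at 0.089 (SE 0.021).

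**Figure D1:**
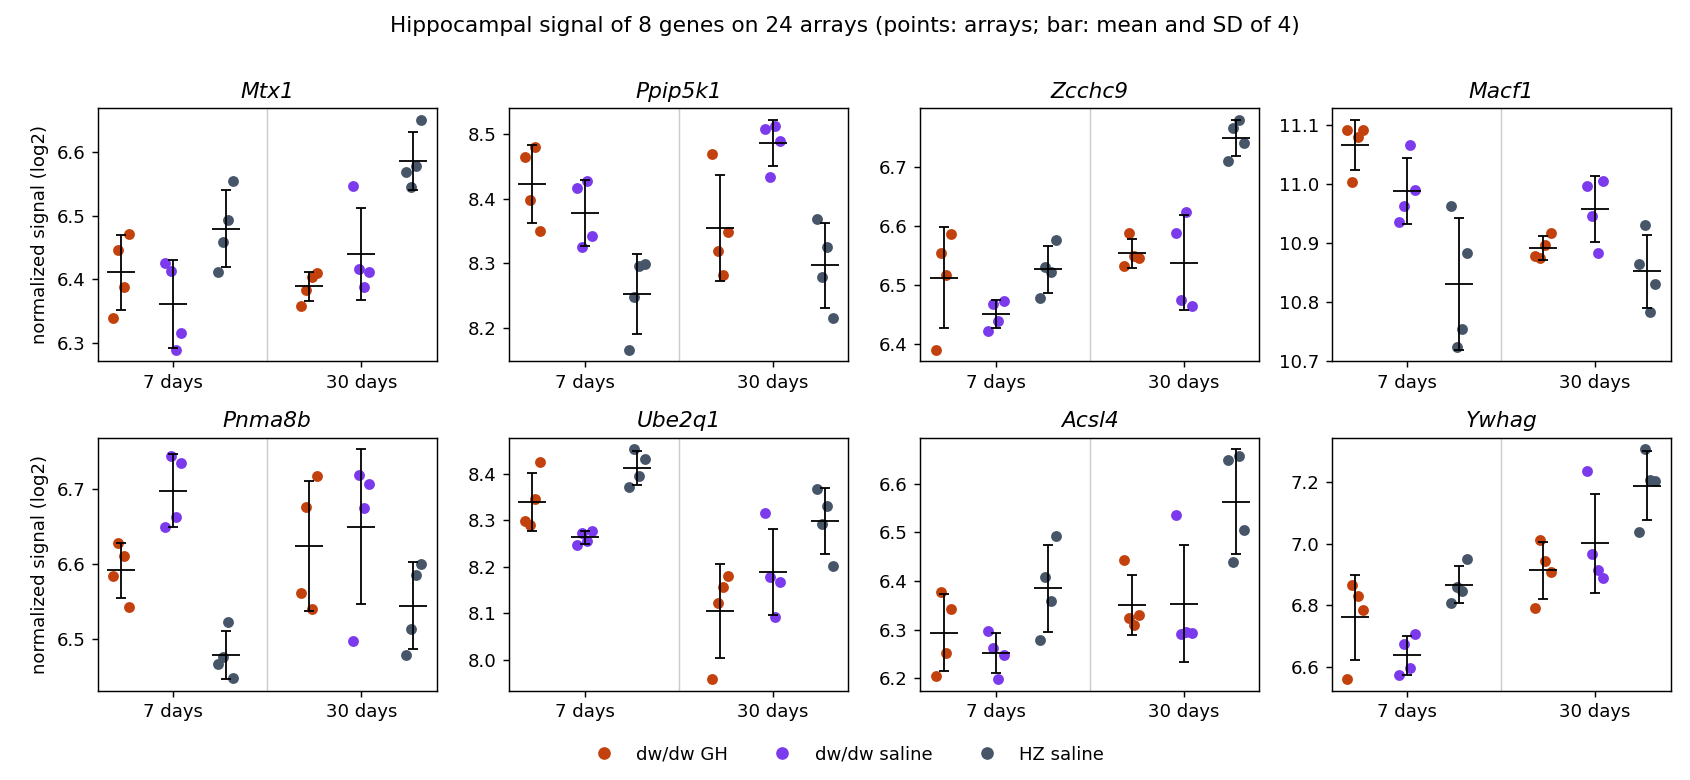
Normalized log2 signal of each of the 8 genes on each array, by group and time point, with the mean and SD of 4 rats. The y axes differ between genes and do not start at 0. Zcchc9 at 30 days has every dw/dw point below every HZ point, and Ppip5k1 and Pnma8b at 7 days have every dw/dw point above.

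The 5 genes with lower values in dw/dw rats are taken first, starting with Mtx1. In replicates 1 to 4 of each group in turn, Mtx1 had log2 signals at 7 days of 6.34, 6.45, 6.39 and 6.47 in dw/dw GH rats, 6.43, 6.41, 6.29 and 6.32 in dw/dw saline rats and 6.41, 6.46, 6.49 and 6.55 in HZ rats. The 3 groups overlapped, with the lowest values in dw/dw saline rats. At 30 days, Mtx1 had 6.36, 6.38, 6.40 and 6.41 in dw/dw GH rats, 6.55, 6.42, 6.39 and 6.41 in dw/dw saline rats and 6.57, 6.55, 6.58 and 6.65 in HZ rats. All 4 GH-treated dwarfs lay below all HZ rats, while saline replicate 1, at 6.55, lay within the HZ range and the other 3 saline rats below it. The dw/dw minus HZ difference of Mtx1 was -0.069 (SE 0.040) with GH and -0.12 (SE 0.040) with saline at 7 days, and -0.20 (SE 0.040) with GH and -0.15 (SE 0.040) with saline at 30 days.

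At 7 days, Acsl4 read 6.21, 6.38, 6.25 and 6.34 in dw/dw GH rats, 6.30, 6.26, 6.20 and 6.25 in dw/dw saline rats and 6.28, 6.41, 6.36 and 6.49 in HZ rats. The order of the means was saline, GH, HZ from low to high, and neighbouring groups overlapped. At 30 days, Acsl4 read 6.44, 6.32, 6.31 and 6.33 in dw/dw GH rats, 6.53, 6.29, 6.29 and 6.29 in dw/dw saline rats and 6.65, 6.44, 6.66 and 6.50 in HZ rats. Here 3 of 4 saline rats stood together at 6.29 and the fourth, replicate 1, stood at 6.53 among the HZ values. GH replicate 1, at 6.44, was likewise the highest of its group, and the array with the largest share of probes detected, at 51.2%. The differences from HZ were -0.091 (SE 0.060) with GH and -0.13 (SE 0.060) with saline at 7 days, against -0.21 (SE 0.060) and -0.21 (SE 0.060) at 30 days in the same order. The 2 differences at 30 days were nearly equal.

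For Zcchc9 at 7 days the signals were 6.39, 6.55, 6.52 and 6.59 in dw/dw GH rats, 6.42, 6.47, 6.44 and 6.47 in dw/dw saline rats and 6.48, 6.53, 6.52 and 6.58 in HZ rats. The saline rats all lay below the HZ rats, but the GH rats spread over the whole range of both other groups. At 30 days, Zcchc9 had 6.53, 6.59, 6.55 and 6.54 in dw/dw GH rats, 6.59, 6.47, 6.62 and 6.46 in dw/dw saline rats and 6.71, 6.77, 6.78 and 6.74 in HZ rats. All 8 dwarfs then lay below all 4 HZ rats, the only 1 of the 8 genes for which this held at 30 days, and 0.662% of tested probes were separated in this way. Zcchc9 was also the only probe of 11487 (0.00871%) with an adjusted p under 0.05 in limma for the mean of the dw/dw groups minus HZ at 30 days. That contrast is part of the one that chose the gene, so this count is no evidence for it. At 7 days the Zcchc9 difference was small, -0.014 (SE 0.037) with GH and -0.076 (SE 0.037) with saline, against -0.19 (SE 0.037) and -0.21 (SE 0.037) at 30 days. The description of Zcchc9 as differing at both ages therefore rests on 30 days, and its GH minus HZ difference at 7 days lay within 1 SE of 0.

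Ube2q1 at 7 days gave 8.30, 8.29, 8.35 and 8.42 in dw/dw GH rats, 8.25, 8.27, 8.25 and 8.28 in dw/dw saline rats and 8.37, 8.45, 8.39 and 8.43 in HZ rats. Saline rats were tightly grouped, with an SD of 0.014, and lay below every GH rat and every HZ rat. At 30 days, Ube2q1 gave 7.96, 8.12, 8.16 and 8.18 in dw/dw GH rats, 8.32, 8.18, 8.09 and 8.17 in dw/dw saline rats and 8.37, 8.29, 8.33 and 8.20 in HZ rats. All GH rats lay below all HZ rats at that age, and the saline rats overlapped both. The differences from HZ were -0.073 (SE 0.048) with GH and -0.15 (SE 0.048) with saline at 7 days, and -0.19 (SE 0.048) with GH and -0.11 (SE 0.048) with saline at 30 days. The order of the dwarf means was thus turned between the ages, saline lowest at 7 days and GH lowest at 30 days.

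At 7 days, Ywhag was measured at 6.56, 6.87, 6.83 and 6.79 in dw/dw GH rats, 6.57, 6.67, 6.60 and 6.71 in dw/dw saline rats and 6.81, 6.86, 6.85 and 6.95 in HZ rats. All saline rats lay below all HZ rats, and the GH rats reached from 6.56, below every saline rat, to 6.87, within the HZ range. At 30 days, Ywhag was measured at 6.79, 7.01, 6.94 and 6.91 in dw/dw GH rats, 7.24, 6.97, 6.91 and 6.89 in dw/dw saline rats and 7.04, 7.31, 7.21 and 7.20 in HZ rats. All GH rats lay below all HZ rats, and saline replicate 1, at 7.24, again stood with the HZ rats. The differences from HZ were -0.11 (SE 0.076) with GH and -0.23 (SE 0.076) with saline at 7 days, and -0.28 (SE 0.076) with GH and -0.19 (SE 0.076) with saline at 30 days.

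The other 3 genes had higher values in dw/dw rats. At 7 days, Ppip5k1 had signals of 8.46, 8.40, 8.48 and 8.35 in dw/dw GH rats, 8.42, 8.33, 8.43 and 8.34 in dw/dw saline rats and 8.17, 8.25, 8.30 and 8.30 in HZ rats. Every dwarf of either treatment lay above every HZ rat. At 30 days, Ppip5k1 had 8.47, 8.32, 8.28 and 8.35 in dw/dw GH rats, 8.51, 8.43, 8.51 and 8.49 in dw/dw saline rats and 8.37, 8.28, 8.33 and 8.22 in HZ rats. Only the saline rats lay wholly above HZ, and 3 of 4 GH rats lay within the HZ range. Its differences from HZ were 0.17 (SE 0.042) with GH and 0.13 (SE 0.042) with saline at 7 days, and 0.058 (SE 0.042) with GH and 0.19 (SE 0.042) with saline at 30 days.

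At 7 days, Macf1 stood at 11.091, 11.003, 11.080 and 11.091 in dw/dw GH rats, 10.936, 10.963, 11.066 and 10.990 in dw/dw saline rats and 10.963, 10.723, 10.755 and 10.882 in HZ rats. GH rats lay above all HZ rats, while saline rats overlapped HZ through HZ replicate 1, which was at 10.963. At 30 days, Macf1 stood at 10.877, 10.875, 10.897 and 10.917 in dw/dw GH rats, 10.997, 10.945, 10.882 and 11.005 in dw/dw saline rats and 10.863, 10.930, 10.783 and 10.830 in HZ rats. The 3 groups overlapped at this age. The Macf1 difference from HZ was 0.24 (SE 0.044) with GH and 0.16 (SE 0.044) with saline at 7 days, and 0.040 (SE 0.044) with GH and 0.11 (SE 0.044) with saline at 30 days. Within groups the Macf1 signal moved with the mean of the meningeal markers (r = 0.51 over 24 arrays, each taken minus its group mean). With that marker mean as a covariate, the GH minus HZ difference of Macf1 was 0.25 at 7 days and -0.0019 at 30 days, the saline minus HZ difference 0.20 and 0.082, and the mean of dw/dw minus HZ 0.13, against 0.13 without it.

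At 7 days, Pnma8b had 6.58, 6.63, 6.61 and 6.54 in dw/dw GH rats, 6.65, 6.74, 6.66 and 6.73 in dw/dw saline rats and 6.47, 6.48, 6.52 and 6.45 in HZ rats. The 3 groups did not overlap, with saline highest, GH in the middle and HZ lowest. At 30 days, Pnma8b had 6.56, 6.68, 6.54 and 6.72 in dw/dw GH rats, 6.50, 6.72, 6.67 and 6.71 in dw/dw saline rats and 6.48, 6.51, 6.58 and 6.60 in HZ rats. The groups overlapped, and saline replicate 1, at 6.50, lay within the HZ range, as it did for Mtx1, Ube2q1, Acsl4 and Ywhag. The differences from HZ were 0.11 (SE 0.045) with GH and 0.22 (SE 0.045) with saline at 7 days, and 0.079 (SE 0.045) with GH and 0.11 (SE 0.045) with saline at 30 days.

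**Figure D2:**
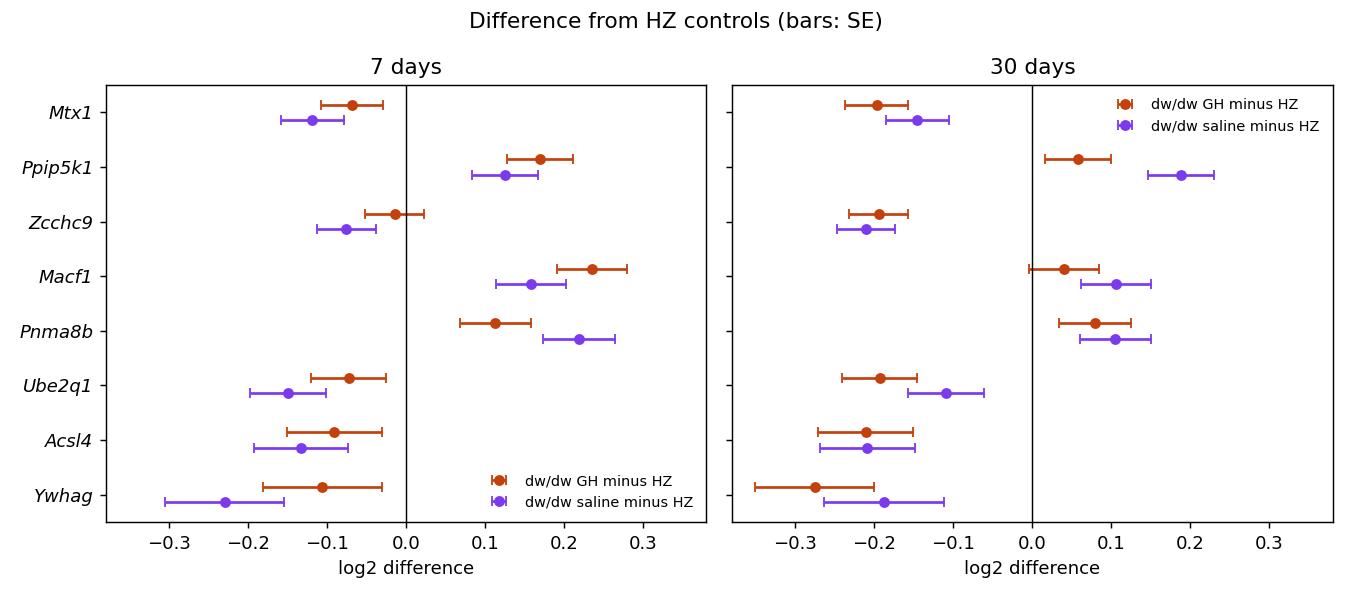
Log2 difference from HZ rats of dw/dw GH and dw/dw saline rats at each time point for the 8 genes, with SE bars from the limma fit. All 32 differences have the sign of their gene's mean difference, and that of Zcchc9 with GH at 7 days, -0.014, is the smallest. The differences are parts of the mean that chose the genes, so the shared sign is no evidence for them.

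Counted over arrays, the separation of all 8 dwarfs of an age from HZ rats held at a single age at most, while that of saline rats alone held at both ages for Ppip5k1 and Zcchc9. All 8 dwarfs lay on one side of all 4 HZ rats for Ppip5k1 and Pnma8b at 7 days, where 0.392% of tested probes did so, and for Zcchc9 at 30 days. No gene met this at both ages. GH rats alone were separate from HZ rats for Ppip5k1, Macf1 and Pnma8b at 7 days (2.39% of tested probes) and for Mtx1, Zcchc9, Ube2q1 and Ywhag at 30 days (3.19%). Saline rats alone were separate from HZ rats for Ppip5k1, Pnma8b, Zcchc9, Ube2q1 and Ywhag at 7 days (2.81%) and for Ppip5k1 and Zcchc9 at 30 days (4.34%). These separations belong to the contrast that chose the genes and are given as a description. Saline replicate 1 at 30 days lay inside the range of the 4 HZ rats for 5 of the 8 genes (Mtx1, Pnma8b, Ube2q1, Acsl4 and Ywhag). Without this array, 34 of 11487 probes passed in the mean of dw/dw minus HZ in limma, 7 of the 8 genes among them. For those 5 genes, leaving out an array that lies inside the HZ range enlarges the difference by construction. The calls of all 7, Ppip5k1 and Zcchc9 included, lie in the contrast that chose the genes and are no evidence for them.

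The test of GH compared dw/dw GH with dw/dw saline rats and used no HZ array. The place of the GH mean relative to the HZ mean does use the HZ arrays, which chose the genes, and is a description. At 7 days the GH mean lay between the saline and HZ means for 6 genes, Mtx1, Zcchc9, Pnma8b, Ube2q1, Acsl4 and Ywhag, and beyond the saline mean for Ppip5k1 and Macf1. At 30 days it lay between them for 4 genes, Ppip5k1, Zcchc9, Macf1 and Pnma8b, and beyond saline for Mtx1, Ube2q1, Acsl4 and Ywhag. No GH minus saline difference of the 8 genes passed after adjustment at either time point (limma, adjusted p of 0.9996 or more). Over all probes 0 of 11487 passed at 7 days (0%), with 534 at an unadjusted p under 0.05 (4.65%), and 0 passed at 30 days (0%), with 386 (3.36%).

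At 7 days the GH minus saline difference was positive for 7 of the 8 genes, where the median over all tested probes was -0.00051. The sign counts here and below are a description, since the genes lower in dwarfs varied together within groups. Ywhag had 0.12 (SE 0.076), Macf1 0.077 (SE 0.044), Ube2q1 0.076 (SE 0.048), Zcchc9 0.062 (SE 0.037) and Mtx1 0.050 (SE 0.040). Ppip5k1 had 0.045 (SE 0.042) and Acsl4 0.042 (SE 0.060), both about 1 SE or less from 0. Pnma8b, which averaged 6.59 ± 0.037 with GH and 6.70 ± 0.048 with saline (SD, n = 4), had the 1 negative difference, -0.11, with a 95% interval of -0.20 to -0.011 and a limma p of 0.030 before adjustment. GH and saline rats did not overlap for Pnma8b and Ube2q1, and 3.12% of tested probes were separated in this way.

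At 30 days the difference was negative for 7 of the 8 genes, where the median over all tested probes was -0.00045. Ppip5k1 averaged 8.35 ± 0.081 with GH and 8.49 ± 0.036 with saline (SD, n = 4), a difference of -0.13 with a 95% interval of -0.22 to -0.043 and a limma p of 0.0054 before adjustment. Ywhag had -0.088 (SE 0.076), Ube2q1 -0.084 (SE 0.048), Macf1 -0.066 (SE 0.044) and Mtx1 -0.052 (SE 0.040). Pnma8b at -0.026 (SE 0.045), Acsl4 at -0.0022 (SE 0.060) and Zcchc9, the 1 positive value, at 0.016 (SE 0.037) lay within 1 SE of 0. No gene of the 8 separated GH from saline rats at 30 days, against 2.32% of tested probes. The 95% interval for Ywhag, the least precise of the 8, was -0.25 to 0.070. Its saline minus HZ difference at that age was -0.19. The interval at 30 days reaches that size only on its negative side, away from the HZ mean. At 7 days the Ywhag interval was -0.034 to 0.28 and its saline minus HZ difference -0.23. That interval reaches this size on its positive side, towards the HZ mean. Both saline minus HZ differences belong to the contrast that chose the gene and share the saline arrays with the GH difference. Setting them beside the intervals is therefore a description, and a return to the HZ mean was not tested.

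Averaged over both durations, 4 of the 8 GH minus saline differences were positive and 4 negative, between -0.066 for Pnma8b and 0.039 for Zcchc9. In limma 0 of 11487 probes passed (0%). An unadjusted p under 0.05 was reached by 335 (2.92%), none of them a member. The change of the GH effect from 7 to 30 days was negative for 7 of the 8, Pnma8b being the exception at 0.080 (SE 0.064). Its median over all tested probes was 7.9e-05. The change was -0.18 (SE 0.059) for Ppip5k1, -0.16 (SE 0.068) for Ube2q1, -0.14 (SE 0.063) for Macf1 and -0.21 (SE 0.11) for Ywhag. None passed in limma, with adjusted p between 0.91 and 0.99. Over all 11487 tested, 0 passed (0%), and 592 (5.15%) reached an unadjusted p under 0.05, Ppip5k1, Ube2q1 and Macf1 among them.

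Red blood cell markers stood higher with GH, with 3 of 4 tested ones positive at 7 days (median 0.62) and 4 of 4 at 30 days (median 0.50), though 0 passed in limma. Their mean, centred per gene, was 0.52 to 0.91 in GH rats and 0.16 to 0.34 in saline rats, with no overlap, and -0.36 to -0.13 in GH rats against -0.93 to -0.15 in saline rats at 30 days. Of the 9 listed markers 3 were detected on all 24 arrays. With this mean as a covariate, the GH minus saline difference at 7 days was 0.21 for Ywhag, 0.13 for Acsl4, 0.13 for Ube2q1, 0.11 for Mtx1, 0.076 for Ppip5k1 and -0.14 for Pnma8b, each farther from 0 than without it. Those of Zcchc9 and Macf1 were 0.060 and 0.074, slightly nearer to 0. Because the marker mean separated GH from saline rats at 7 days, this fit cannot tell it apart from GH there. These values are therefore no result about blood. At 30 days the groups overlapped through saline replicate 3 alone, at -0.15, so the same limit nearly holds. At 30 days the differences with it were -0.11 for Ppip5k1, -0.069 for Macf1, -0.054 for Pnma8b, -0.042 for Ube2q1, -0.018 for Ywhag, -0.0038 for Mtx1, 0.014 for Zcchc9 and 0.070 for Acsl4, whose sign turned. Again 0 probes passed at either time. Of 12 meningeal markers, GH minus saline was positive for 12 at 7 days (median 0.091) and for 11 at 30 days (median 0.085), and 0 passed in limma. Their mean lay between -0.080 and 0.36 in GH rats and between -0.10 and 0.067 in saline rats at 7 days, and between -0.20 and 0.33 in GH rats and -0.29 and 0.16 in saline rats at 30 days.

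**Figure D3:**
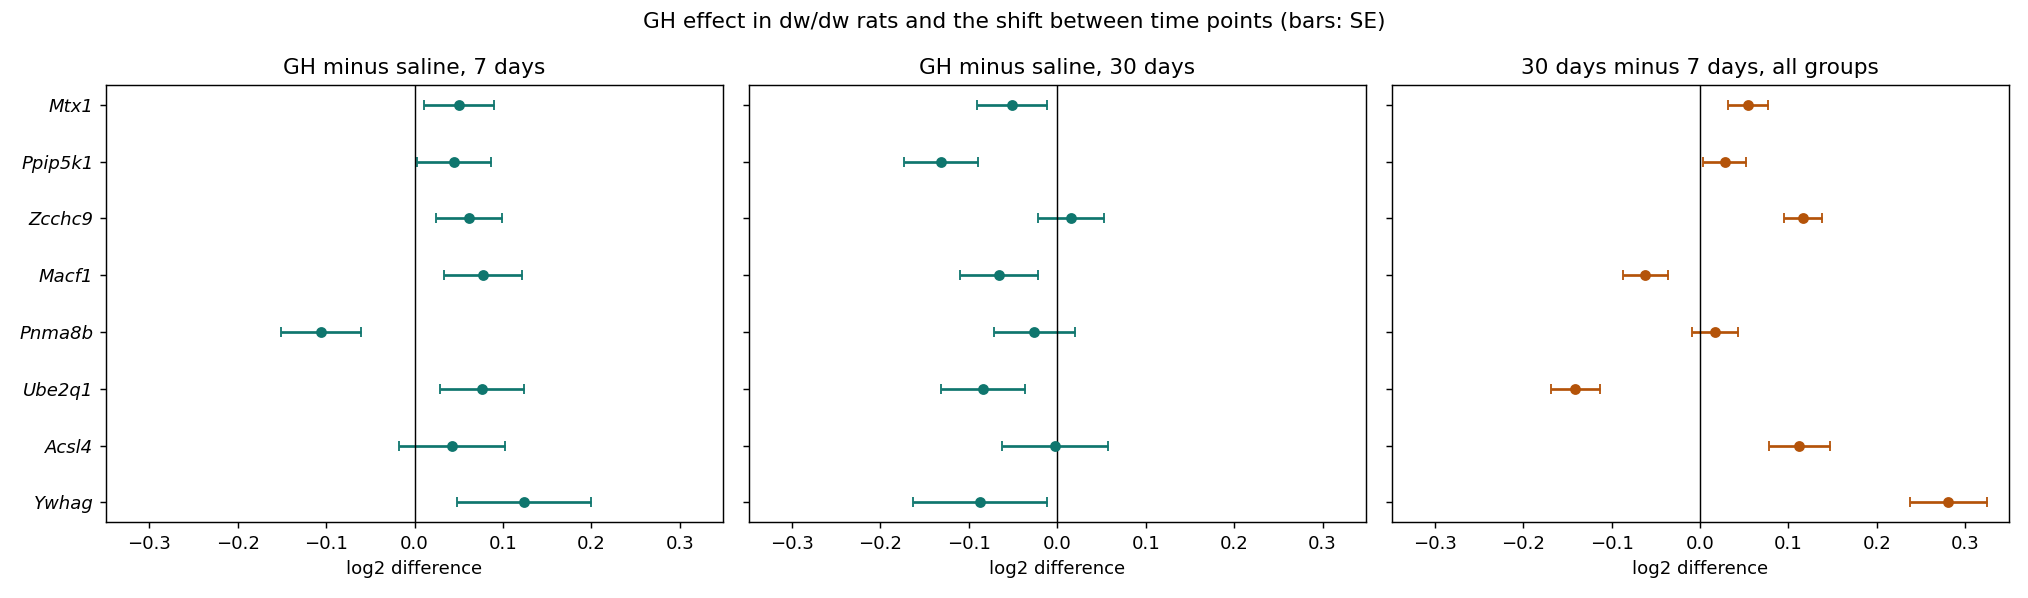
Log2 differences of the 8 genes for dw/dw GH minus dw/dw saline at 7 days (left) and 30 days (middle) and for 30 days minus 7 days over all groups (right), with SE bars from the limma fit. Most GH differences are positive at 7 days and negative at 30 days and none passes, whereas Ywhag at 30 minus 7 days lies at 0.28.

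Between the time points, all groups together, 4 of the 8 genes passed after adjustment in limma, against 15.7% of all tested probes (1808 of 11487). The choice of the genes used the same arrays, so this count is no separate evidence about them as a set. Of the tested probes 7.83% were higher at 30 days and 7.9% lower. Ywhag rose by 0.28 (SE 0.044, adjusted p = 0.00032), Zcchc9 by 0.12 (SE 0.022, adjusted p = 0.0012) and Acsl4 by 0.11 (SE 0.035, adjusted p = 0.032). Ube2q1 fell, with a difference of -0.14 (SE 0.028, adjusted p = 0.0020). Mtx1 at 0.054 (SE 0.023, adjusted p = 0.11), Macf1 at -0.062 (SE 0.026, adjusted p = 0.11), Ppip5k1 at 0.028 (SE 0.024, adjusted p = 0.47) and Pnma8b at 0.017 (SE 0.026, adjusted p = 0.71) did not pass in limma. For none of the 8 did the 12 arrays at 30 days lie apart from the 12 at 7 days, against 0.357% of tested probes.

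Among the 5 genes lower in dwarfs, the age shift had no common direction, since Ywhag, Zcchc9 and Acsl4 rose with age and Ube2q1 fell. Ywhag averaged 6.91 ± 0.093 at 30 days against 6.76 ± 0.14 at 7 days in GH dwarfs, 7.00 ± 0.16 against 6.64 ± 0.064 in saline dwarfs and 7.19 ± 0.11 against 6.87 ± 0.061 in HZ rats (SD, n = 4). Ube2q1 averaged 8.10 ± 0.10 against 8.34 ± 0.062 in GH dwarfs, 8.19 ± 0.093 against 8.26 ± 0.014 in saline dwarfs and 8.30 ± 0.071 against 8.41 ± 0.036 in HZ rats. Both genes thus shifted in the same direction in each of the 3 groups. For Zcchc9 the means were 6.55 ± 0.024 against 6.51 ± 0.086, 6.54 ± 0.080 against 6.45 ± 0.024 and 6.75 ± 0.031 against 6.53 ± 0.040 in the same order of groups. The HZ rats showed the largest step of the 3. For Acsl4 the means were 6.35 ± 0.062 against 6.29 ± 0.079, 6.35 ± 0.12 against 6.25 ± 0.041 and 6.56 ± 0.11 against 6.38 ± 0.090. Here too the HZ rats showed the largest step. The HZ arrays also enter the contrast that chose the genes.

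Markers of several cell types also differed between the ages. By limma, 4 of 7 oligodendrocyte markers (Mbp, Mog, Mobp and Cldn11) were lower at 30 days and 0 higher (list median -0.23), and 4 of 8 interneuron markers (Gad1, Sst, Npy and Slc32a1) were higher and 0 lower (median 0.19). Of 12 meningeal markers 3 were lower (Col1a1, Col1a2 and Igfbp2) and 0 higher (median -0.085), and of 10 neuronal markers 3 were higher and 1 lower (median 0.081), against a median of -0.0014 over all probes. The part of these shifts in the age differences of the 8 genes was not tested. Fits with the meningeal or red blood cell mean as a covariate were run as alternatives only. The red blood cell marker mean separated the ages, at -0.93 to -0.13 on the 30-day arrays and 0.16 to 0.91 on the 7-day arrays. A fit with this mean as a covariate therefore cannot tell it apart from age, and a call lost in that fit is no result about blood. With it as a covariate 40 probes passed in limma for 30 minus 7 days and 0 of the 8 genes did. In that fit the differences were 0.11 for Ywhag, 0.12 for Zcchc9 and -0.25 for Ube2q1, and that of Acsl4 turned to -0.069. Acsl4 also lost its call with the share of probes detected as a covariate (0.074, limma adjusted p = 0.10) and without any 1 of 7 single arrays, with limma adjusted p up to 0.059. At 7 days these were replicates 1 and 3 of the GH dwarfs, replicate 3 of the saline dwarfs and HZ replicate 1. At 30 days they were replicate 1 of the GH dwarfs and replicates 1 and 3 of HZ. Ube2q1 lost its call with median scaling in place of quantile normalization (difference -0.14, limma adjusted p = 0.29), where 351 probes passed.

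Within groups the 5 lower genes varied together. Over 24 arrays, each minus its group mean, all 10 pairs among Mtx1, Acsl4, Zcchc9, Ywhag and Ube2q1 had a positive correlation, with a median r of 0.43 and a range of 0.23 to 0.67. Of the 3 pairs among Ppip5k1, Macf1 and Pnma8b 0 were positive, with a median r of -0.27, and the 15 mixed pairs had a median of -0.16, with 3 positive. Whether positive pairs are as common among other tested probes was not tested. The correlations share the same arrays and normalization, and they are given as a description. They also mean that the 8 signs counted for GH above are not 8 separate observations. The share of probes detected on an array moved with Acsl4 (r = 0.63), Ppip5k1 (r = 0.46) and Mtx1 (r = 0.44) within groups.

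**Figure D4:**
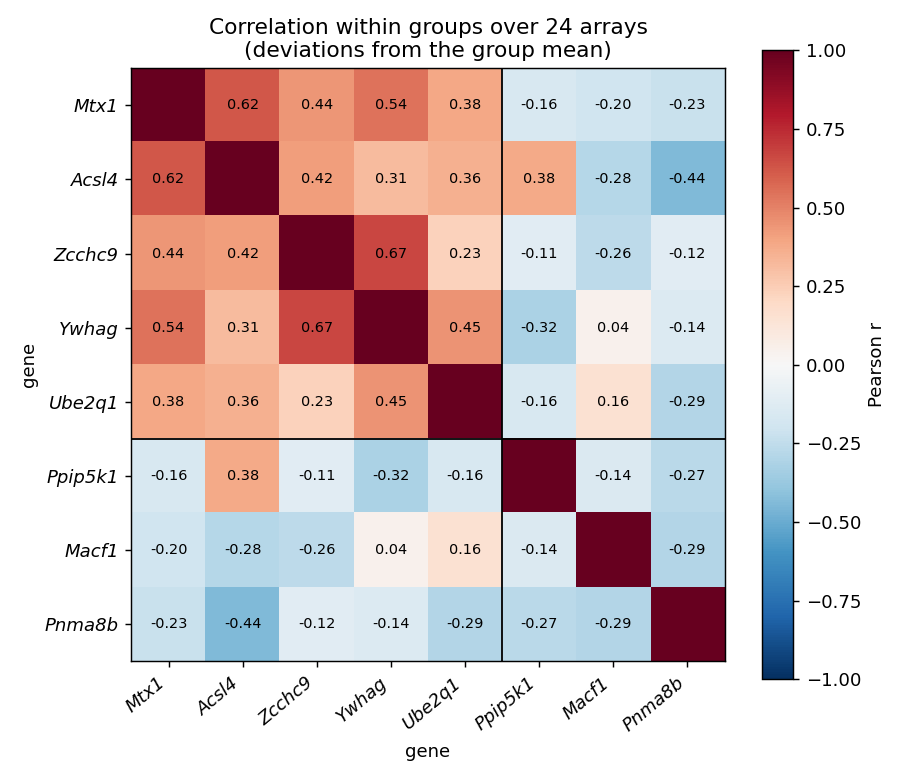
Pearson correlation between the 8 genes over 24 arrays after each group's mean was removed, with the 5 genes lower in dw/dw rats before the line and the 3 higher ones after it. The lower genes correlate positively with each other (0.23 to 0.67), and the higher genes do not (-0.29 to -0.14).

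The strongest pairs were Zcchc9 with Ywhag (r = 0.67) and Mtx1 with Acsl4 (r = 0.62). Their promoter windows, 250 bases before to 50 after the annotated gene start, are shown because these genes moved together. Whether transcription begins at these annotated starts was not tested. In Zcchc9 the annotated start follows directly on the letters cttacag, so its window may not be a promoter. Sequences are from RefSeq, build GRCr8, written in the direction of the gene, and capitals mark E-box letters (CANNTG).
Zcchc9 (chr2:24781949-24782248, - strand): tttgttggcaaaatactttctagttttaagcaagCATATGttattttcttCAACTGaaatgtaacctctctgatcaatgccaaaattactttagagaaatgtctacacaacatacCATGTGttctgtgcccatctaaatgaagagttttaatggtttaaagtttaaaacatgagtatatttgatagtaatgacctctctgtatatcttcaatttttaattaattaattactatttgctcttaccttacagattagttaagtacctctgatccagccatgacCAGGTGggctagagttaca
Ywhag (chr12:26380969-26381268, + strand): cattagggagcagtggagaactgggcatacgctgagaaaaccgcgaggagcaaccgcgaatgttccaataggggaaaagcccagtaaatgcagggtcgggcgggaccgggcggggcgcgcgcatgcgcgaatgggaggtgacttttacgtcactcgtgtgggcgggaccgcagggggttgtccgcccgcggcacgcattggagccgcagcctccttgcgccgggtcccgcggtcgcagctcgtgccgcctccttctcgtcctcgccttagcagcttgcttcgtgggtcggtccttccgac
Mtx1 (chr2:176918775-176919074, - strand): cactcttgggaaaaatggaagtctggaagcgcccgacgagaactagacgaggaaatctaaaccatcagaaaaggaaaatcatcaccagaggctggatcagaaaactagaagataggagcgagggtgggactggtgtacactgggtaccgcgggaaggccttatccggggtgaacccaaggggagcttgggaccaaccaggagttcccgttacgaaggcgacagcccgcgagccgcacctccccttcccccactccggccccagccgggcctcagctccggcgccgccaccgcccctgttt
Acsl4 (chrX:110803212-110803511, - strand): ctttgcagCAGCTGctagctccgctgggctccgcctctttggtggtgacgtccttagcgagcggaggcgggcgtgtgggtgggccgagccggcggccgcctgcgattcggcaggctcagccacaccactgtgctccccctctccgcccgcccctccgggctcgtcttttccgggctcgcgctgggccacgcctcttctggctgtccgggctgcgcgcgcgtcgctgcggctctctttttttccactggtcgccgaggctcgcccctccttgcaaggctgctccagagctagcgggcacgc
In GRCr8, 8 of 8 members had a promoter in the RefSeq table. The STAT element TTCNNNGAA, searched because STAT5 carries the GH signal, was in 0 of the 8, against 8.87% of 33469 promoters of the same length. The cyclic AMP response element TGACGTCA was in 0 of 8, against 1.83%. E-boxes were in 4 of 8, Zcchc9, Pnma8b, Ube2q1 and Acsl4, against 72.1% of all promoters. All 3 patterns read the same on both strands. The windows of each pair differed in base composition, with 31.7% G and C in Zcchc9 and 65.7% in Ywhag, and 60.0% in Mtx1 and 70.7% in Acsl4, against a median of 51.7% over all promoters. The motif counts and these shares depend on where the annotation places each start.

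Some genes outside the set had patterns most like those of the 8, by Pearson correlation over 24 arrays after removal of each time point's mean. Acsl4 was closest to Jkamp (r = 0.92) and Nptn (r = 0.90), and Mtx1 to Ppp2r2b (r = 0.89) and Mrpl17 (r = 0.88). Ywhag was closest to Rps13 (r = 0.85) and Ddx46 (r = 0.82), Zcchc9 to Mrpl17 (r = 0.79) and Mrpl1 (r = 0.77), and Ube2q1 to Rps13 (r = 0.78) and Armcx2 (r = 0.77). Of the higher genes, Pnma8b went with Enpp5 (r = 0.77) and Gabbr1 (r = 0.74), Macf1 with Amd1 (r = 0.76) and Angel2 (r = 0.73), and Ppip5k1 with Mtmr14 (r = 0.70) and Slc35f5 (r = 0.68). These correlations hold the genotype difference itself, since only the time point's mean was removed.

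Relatives of the 8 genes were read from lists of genes of like function. For the mean of dw/dw minus HZ and for the GH comparisons 0 of their 93 other measured genes passed in limma, as did 0 of all 11487 probes (0%), so this count is no result about the relatives. In the mean of dw/dw minus HZ, Mtx2, the partner of metaxin 1, had -0.039 (SE 0.051, adjusted p = 0.87), Ppip5k2 0.027 (SE 0.019, adjusted p = 0.69), Pnma8a 0.012 (SE 0.012, adjusted p = 0.82) and Acsl3 -0.0011 (SE 0.034, adjusted p = 1), all by limma. The 5 other 14-3-3 genes had 0.11 (SE 0.028) for Ywhae, 0.023 (SE 0.032) for Ywhab, 0.0011 (SE 0.057) for Ywhaz, -0.058 (SE 0.076) for Ywhaq and -0.12 (SE 0.083) for Ywhah. Ywhaq and Ywhah had the negative sign of Ywhag. Ywhab, Ywhaz and Ywhae, the farthest from 0 relative to its SE, had the opposite sign. Zcchc7, Dst and Ube2q2 were not tested here. For GH minus saline over both durations, the smallest unadjusted p of each list belonged to Mtx2, Ppip5k2, Zcchc8, Camsap2, Pnma5, Ube2k, Acsl5 and Ywhaz, each with a limma adjusted p of 1. Of these, Ppip5k2 at -0.050 (SE 0.022) and Ube2k, an E2 enzyme, at -0.040 (SE 0.016) had the smallest.

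For 30 minus 7 days some relatives passed in limma, beside 15.7% of all tested probes. Of the 17 mitochondrial outer membrane genes Tomm34 and Vdac3 rose and Samm50, a partner of the metaxins, fell, with a list median of 0.014 against -0.0014 over all probes. Among 13 inositol phosphate genes Ip6k1 and Impa1 rose and Itpka and Inpp5a fell (median 0.0059). Of 9 zinc knuckle genes Cnbp rose (median 0.011), and of 13 cytoskeletal linker genes Clip2 and Camsap1 rose (median 0.018). In the PNMA list Pnma3 rose and Pnma5 fell of 6 (median -0.0090), and of 18 ubiquitin-conjugating enzymes Ube2g2 rose (median 0.0094). Among 12 fatty acid activation genes Acot7 rose, while Acsl3, at -0.13 (SE 0.032, adjusted p = 0.0093), and the acyl-CoA binding protein gene Dbi, at -0.14 (SE 0.031, adjusted p = 0.0040), fell (median -0.0098). Acsl3 thus moved opposite to Acsl4. Of the 5 other 14-3-3 genes 0 passed (median 0.014), where Ywhag rose.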

How the data were processed

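Total RNA of 24 hippocampi, 1 per rat, was hybridised to Illumina arrays after biotin labelling of cRNA, per the labels' protocols. The submitters' processing notes list GenomeStudio 2010.2 without saying for what. Per the file headers, the deposited scanner table gives a bead signal intensity with its detection p-value for 22226 probes on every array. The series matrix gives other intensity values by the authors, which are, from the values, linear and background-subtracted. Its normalization is not given in the sources used here, and it served as an alternative only.

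Signals were corrected with normexp (offset 16, detection p-values in place of control probes), quantile normalized and put on a log2 scale (neqc, limma 3.58.1, R 4.3.3). The tables of promoters and figures were made with Python 3.11.15. Tests covered the 11487 probes (51.7%) with a detection p under 0.05 on 4 or more arrays. Symbols came from the platform annotation. A model of 6 group means was fitted with lmFit and eBayes (18 residual degrees of freedom), two-sided, with Benjamini-Hochberg adjustment over all tested probes. Fits were tested on simulated data. The number of arrays limits the precision, and depth cannot be counted on arrays.

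The members and lists were chosen with earlier results of these data known. No comparison of dw/dw with HZ is therefore tested for the members. The limma values of list genes and neighbours in it are given as a description. Groups came from the sample titles. Genes named beside the members were the 2 most correlated with each member, the next 3 by p, listed paralogues and the list gene with the smallest p under GH. The rule for the next 3 by p counted from the last member that passed, and since no member passed it was counted from the last member. The lists were 8 of related genes, 1 for each member, and markers of tissue types. Whether replicate numbers pair the rats is not settled by the values. Same-numbered deviations correlated between -0.28 and 0.49, and 12 of 24 comparisons matched best with their own number. Between dw/dw GH and HZ rats they were 0.15 to 0.36 at 7 days (mean 0.26, against -0.089 for other numbers). At 30 days they were 0.087 to 0.49 (mean 0.26, against -0.084). Between dw/dw saline and HZ rats at 7 days they were -0.28 to 0.032 (mean -0.14, against 0.045). In this balanced design the block leaves every difference unchanged. No 2 arrays held identical values. Alternatives changed the background correction, scaling, filter, moderation and covariates, added the replicate number as a block, used the series matrix, or left out 1 array.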

Additional observations from a re-analysis of the deposited data

Results flagged for a closer look

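In 48 sets of 4 arrays, 1 for each gene and group, 3 had a single array far from the other 3 by Dixon's gap ratio at its 95% critical value. Chance flags about 1 in 20 such sets. Acsl4 in dw/dw saline rats at 30 days had 6.53 in replicate 1, where the others lay at 6.29. Acsl4 in dw/dw GH rats at 30 days had 6.44 in replicate 1, where the others lay between 6.31 and 6.33. Those arrays had 49.2% and 51.2% of probes detected, each the highest of its group. Macf1 in dw/dw GH rats at 7 days had 11.003 in replicate 2, where the others lay between 11.080 and 11.091.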

How the results depend on the processing

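The number of probes called for 30 minus 7 days was 351 with median scaling, 5224 with the series matrix and 40 with the red blood cell covariate. The calls lay 49.8% on the higher side as reported, 45.0% with median scaling, 4.9% with the series matrix, whose median over all probes was -0.14, and 67.5% with the red cell covariate. For dw/dw minus HZ the number of probes called was 16 without background correction, 12 over probes detected on all arrays, 15 with a trended robust prior and 11 with the replicate number as a block, Ppip5k1, Zcchc9, Pnma8b and Acsl4 among them. Calls of members in this comparison, which chose them, are no evidence for them. The block gave 1837 calls for 30 minus 7 days, with the same 4 members called as without it, and 0 for each GH comparison. With the share of probes detected as a covariate it was 1 for GH minus saline at 7 days, 1 at 30 days and 2 for the change of the GH effect. Leaving out 1 array gave 0 to 1 calls for GH minus saline at 7 days, 0 to 0 at 30 days and 0 to 2 for their mean (2 without dw/dw saline replicate 3 at 30 days, 1 without saline replicate 4 at 7 days). It gave 0 to 0 for the change of the GH effect, 1560 to 1871 for 30 minus 7 days and 0 to 34 for dw/dw minus HZ, with 34 without dw/dw saline replicate 1 at 30 days, 6 without dw/dw GH replicate 4 at 7 days, 2 each without saline replicate 2 or HZ replicate 1 at 7 days or GH replicate 2 at 30 days, and 1 without GH replicate 2 at 7 days. Signs turned in few fits. With median scaling, GH minus HZ at 7 days was 0.034 for Zcchc9 and 0.058 for Ube2q1, at 30 days -0.0099 for Ppip5k1 and -0.026 for Macf1, and GH minus saline at 30 days -0.0013 for Zcchc9. With slide position as a covariate, Zcchc9 at 7 days was 0.036 for saline minus HZ and 0.042 for GH minus HZ, and -0.040 for GH minus saline at 30 days. Each group filled its own block of positions, so the fits with position cannot tell position apart from group. Acsl4 for GH minus saline at 30 days was 0.011 without background correction, 0.038 with the series matrix, 0.00013 with array weights, 0.040 with position, 0.0033 with the meningeal and 0.070 with the red cell covariate. With the meningeal covariate, GH minus HZ of Macf1 at 30 days was -0.0019. For 30 minus 7 days, Ppip5k1 was -0.094 (limma adjusted p = 0.011) and Pnma8b -0.065 with the series matrix, and Mtx1 -0.065, Ppip5k1 -0.037 and Acsl4 -0.069 with the red cell covariate. Leaving out 1 array gave -0.039 to 0.026 for Zcchc9 GH minus HZ at 7 days, and for GH minus saline at 30 days -0.0084 to 0.044 for Zcchc9, -0.077 to 0.0021 for Pnma8b and -0.033 to 0.058 for Acsl4. The Ube2q1 call for 30 minus 7 days was lost with median scaling (limma adjusted p = 0.29), and that of Acsl4 with median scaling (0.084), no filter (0.052), the detected share (0.10) and meningeal markers (0.11) as covariates. Macf1 passed with the series matrix (-0.20) and without HZ replicate 2 at 7 days (-0.074). In the mean of dw/dw minus HZ all 8 genes kept their sign under every alternative run. The alternatives use the arrays that chose the genes, so this too is a description. Sizes moved by over 1.5 times in several fits, with Acsl4 at -0.61, Mtx1 at -0.41, Pnma8b at 0.31, Zcchc9 at -0.29 and Ywhag at -0.31 with the series matrix. With position as a covariate, Zcchc9 was -0.040, Ppip5k1 0.062, Ywhag -0.10 and Pnma8b 0.27. The cause of these shifts was not tested.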

Other observations

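In GRCr8, Mtx1, Zcchc9 and Ube2q1 lie on chromosome 2, which holds 6.52% of the genes tested. Between Mtx1 and Ube2q1 there are 23 coding genes, and Zcchc9 is 697 coding genes from Mtx1. The other 5 members lie on chromosomes 1 (Pnma8b), 3 (Ppip5k1), 5 (Macf1), 12 (Ywhag) and X (Acsl4). The nearest tested genes on either side of each member gave no call in limma for the mean of dw/dw minus HZ, as did 0 of all 11487 probes (0%). The largest difference was that of Pdia3 beside Ppip5k1, at -0.17 (SE 0.078, limma adjusted p = 0.49), with the opposite sign to its member. Beside Mtx1 lay Entrep3 at 0.028 (SE 0.036) and Trim46 at -0.052 (SE 0.054), and beside Ube2q1 lay Chrnb2, a nicotinic receptor subunit gene, at 0.0021 (SE 0.0091) and Il6r at -0.010 (SE 0.022). The neighbour of Acsl4, Pak3, had -0.066 (SE 0.020, limma adjusted p = 0.22), with the same sign as Acsl4, and that of Macf1, the poly(A) binding protein gene Pabpc4, had -0.11 (SE 0.040, adjusted p = 0.38), with the opposite sign.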
